A study of Mus musculus with 6 samples.

Results

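Acetylcholine, serotonin, noradrenaline, dopamine and histamine reach the visual cortex largely from fibres whose cell bodies lie elsewhere, and they act there through receptors that most cortical cells carry in several kinds. This account covers receptor genes for these 5 neuromodulators, as far as the array held them under a single symbol. It also covers the heterotrimeric G protein subunits that most of the receptors signal through. Members were taken by a pattern of gene symbols, set with earlier results of these data known, and 52 genes (73 probe sets) of the 8251 genes with a single symbol on the array matched. They comprise 28 receptor genes, namely 2 muscarinic, 8 nicotinic, 11 serotonin, 2 adrenergic, 3 dopamine and 2 histamine receptor genes, and 23 G protein subunit genes, namely 12 alpha, 5 beta and 6 gamma. The remaining match was Gnasas1, an antisense RNA of the Gnas locus and no subunit, which the symbol pattern also takes. No beta-adrenergic receptor gene matched, nor did Drd1, Htr2a, Chrm2, Chrm3 or Chrna4, so the receptor families are covered only in part.

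Wild-type C57Bl6 mice (4 in all) lost one eye by enucleation at postnatal day 100, and visual cortex was collected 4 days later. Deprived arrays (3) hold cortex contralateral to the removed eye, and non-deprived arrays (3) hold cortex ipsilateral to it, so both groups come from enucleated animals and no unoperated mouse was part of the comparison. The design text speaks of pooled samples. The labels do not say how mice were divided among arrays. P-values therefore reflect only array-to-array spread, which may be technical.

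A G protein-coupled receptor makes its G protein exchange GDP for GTP, after which the alpha subunit and the paired beta and gamma subunits separate and act on enzymes and ion channels. Gs alpha stimulates adenylyl cyclase, the Gi and Go group inhibits it or opens and closes channels through beta-gamma, and Gq and its relatives activate phospholipase C. The Gna12 and Gna13 products form a further family. Nicotinic receptors and the serotonin receptor encoded by Htr3a are ligand-gated channels and use no G protein. In visual cortex, acetylcholine and the monoamines are best known for setting arousal-dependent gain and for permitting ocular dominance plasticity.

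The 6 arrays were alike in overall brightness, with median signals of 202.8 to 219.7. Over the tested probe sets, log2 signals of 2 arrays correlated at 0.948 to 0.958 where both came from the same group and at 0.945 to 0.961 otherwise. Signal is the MAS5 brightness of a probe set in arbitrary units, so levels of different genes cannot be set against each other. Of 7 genes listed as markers of cortical excitatory neurons, 5 were on the array and all 5 were above the signal minimum. Summed signal of 7 interneuron markers was 17300 to 18200 in non-deprived and 13890 to 15700 in deprived arrays. For 6 hippocampal markers, the sums were 1687 to 1800 and 2038 to 2460. The sums of the other marker lists overlapped between groups. Bright genes weigh most in a sum, and no marker passed the test described below. Of 4 tested hippocampal markers, 3 were higher and Tdo2 was lower, and each had groups that overlapped. Wfs1 (1061 and 1408) was the brightest of them and weighed most in their sum. Whether these genes mark hippocampus alone in these samples was not tested. Sst, Npy and Pvalb had log2 changes of -0.39, -0.42 and -0.25, and Gad1, Gad2 and Slc32a1 -0.13, -0.14 and -0.09. Vip alone of the interneuron markers was higher. The part of either difference in sums in the values below was not tested. Larger changes were registered elsewhere, as all 6 activity-induced genes listed for reference fell (limma adjusted p of 0.00014 to 0.00145). That list was chosen with earlier results of these data known, so its result is no independent check. Large falls also do not show whether smaller changes would be found. Fos averaged 2946 ± 236 (SD, n = 3) without and 703 ± 87.7 with deprivation, and Egr1, which encodes a zinc-finger transcription factor, read 6248 ± 326 and 2846 ± 211.

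No receptor or G protein subunit gene among the members passed the test. Changes below are deprived minus non-deprived on log2(signal + 16), and the test is limma with Benjamini-Hochberg adjustment over 7453 probe sets at an adjusted p under 0.05. Each gene stands on its brightest probe set. Of the 52 members, 37 reached the minimum mean signal over all 6 arrays and were tested, and 15 were dimmer. Past the threshold were 0 of the 37, beside 0.195% of all genes tested and 0.174% of probe sets. At an unadjusted p under 0.05 there was 1 member (2.7%), Chrne, against 5.18% of all genes. The smallest adjusted p among tested members was 0.589. A bulk tissue signal does not tell fewer cells of a type from less RNA per cell.

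Members' estimates lay close to 0 on balance. The mean was lower in deprived arrays for 20 of 37 members (54.1%), against 47.4% of all genes tested, and the median log2 change was -0.02 for members and 0.01 for all genes. Single members ranged from -0.41 (Chrng) to 0.99 (Chrne). A missed threshold does not show that levels are alike, so the 95% interval of each change was read as well. It rests on the same array-to-array spread and may be too narrow for differences between animals. For 22 of 37 members (59.5%) that interval lay wholly within a 1.5-fold change in either direction, against 56.5% of all genes. By class, 15 of 18 G protein subunit genes and 7 of 19 receptor genes were inside those bounds.

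**Figure D1:**
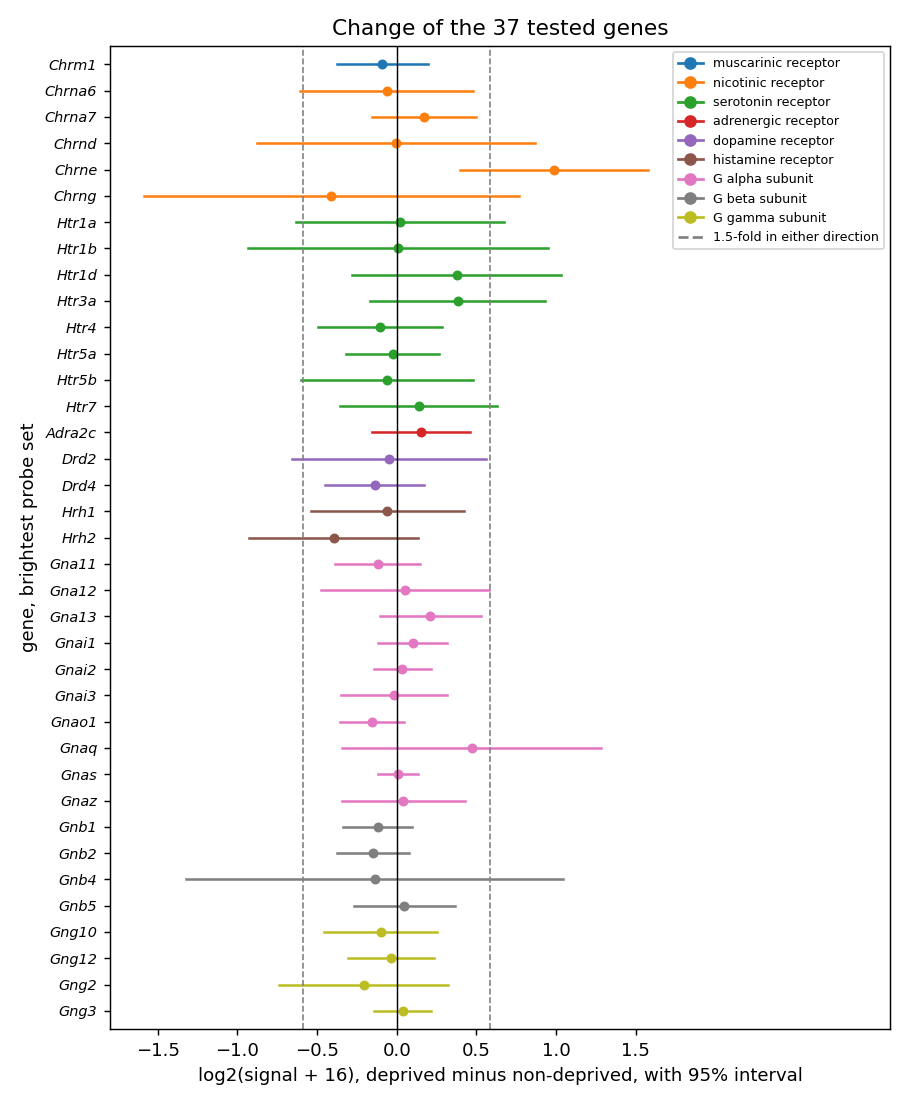
Log2 change, deprived minus non-deprived, of the 37 tested genes on the log2(signal + 16) scale, with points for estimates and bars for 95% intervals from limma on 3 arrays per group. Only the interval of Chrne leaves out 0, and dashed lines mark a 1.5-fold change in either direction.

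Among muscarinic receptor genes, Chrm1 gave a steady reading and Chrm4 was too dim to test. Chrm1 encodes a Gq-coupled acetylcholine receptor that is abundant on cortical pyramidal cells. Its signals were 777.2, 889.9 and 726.3 in the non-deprived arrays and 714.1, 791.3 and 735.4 in the deprived arrays. The groups overlapped, and the log2 change was -0.09 (SE 0.13, limma adjusted p = 0.968), with a 95% interval of -0.38 to 0.20. Chrm4, which encodes a Gi-coupled receptor better known from striatum, averaged 70.9 over all arrays and read 41.2 to 132.3.

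The nicotinic receptor genes fall into neuronal subunits and subunits known from muscle. Chrna7 encodes the subunit of the homomeric, calcium-permeable nicotinic receptor of cortex and hippocampus. It read 469.7, 539.5 and 515.2 in non-deprived arrays and 624.6, 605.4 and 500.3 in deprived arrays. Deprived replicate 3 lay among the non-deprived values, and the change was 0.17 (SE 0.15, limma adjusted p = 0.967; interval -0.15 to 0.50). Chrna6, better known from midbrain dopamine neurons and retinal ganglion cells, read 195.5 ± 4.85 and 188.2 ± 30.2 (SD, n = 3 each). Chrnb2, the beta subunit of the main high-affinity receptor of brain, averaged 67.6 and was not tested.

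Chrne, which encodes the epsilon subunit of the adult muscle endplate receptor, had the smallest p of the 37 tested members. Its brightest probe set, which carries an _r suffix for relaxed design rules, read 308.0, 254.6 and 200.5 in non-deprived arrays. The deprived arrays read 609.9, 338.8 and 652.3. Every deprived value lay above every non-deprived one, deprived replicate 2 by the smallest margin, and the change was 0.99 (SE 0.26, limma adjusted p = 0.589). Both other Chrne probe sets were dim, with mean signals of 70.4 and 28.3 and changes of 0.07 (SE 0.32) and 0.37 (SE 0.28). The dimmer of them carries a _g suffix, which marks probes shared with a second set. It read 23.1, 20.2 and 23.8 in non-deprived against 31.4, 45.3 and 26.1 in deprived arrays. These groups did not overlap either and pointed the same way. Every value lay under the signal minimum, and the set is no independent reading. Over the 13 alternative settings that tested the brightest probe set, its change ran from 0.82 to 1.28 and its adjusted p from 0.116, without deprived replicate 2, to 1.0.

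Other muscle receptor subunits gave signals near the minimum or under it. Chrnd, the delta subunit, averaged 150.6 ± 59.9 over the non-deprived and 150.7 ± 60.4 over the deprived arrays. Chrng, the gamma subunit of the fetal receptor, read 72.2, 189.5 and 441.1 in non-deprived arrays and 109.5, 127.5 and 180.2 in deprived arrays. Its change of -0.41 had an SE of 0.53, and non-deprived replicate 3 held the highest value. The change was 0.18 without that array and -1.01 without non-deprived replicate 1, and a second, dim Chrng probe set had 0.22 (SE 0.45). Chrna1 averaged 60.5 and Chrnb1 34.5. Whether such signals in cortex stand above background was not tested.

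Serotonin receptor genes were the largest receptor class, and 8 of 11 were tested. Their median change was 0.01, 5 were higher and 3 lower in mean, and none passed. Htr5a, which encodes a Gi-coupled receptor, was the most even receptor gene across arrays. It read 540.4, 588.1 and 525.1 in non-deprived and 524.6, 557.1 and 541.1 in deprived arrays, with a change of -0.03 (SE 0.13; interval -0.32 to 0.27). The highest array exceeded the lowest by a factor of 1.12.

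Htr3a encodes the subunit of the serotonin-gated cation channel and in cortex is known from superficial interneurons, many of them Vip-positive. The non-deprived arrays read 290.3, 158.2 and 273.3, and the deprived arrays read 320.5, 299.7 and 306.2. The groups did not overlap, and non-deprived replicate 2 stood lowest. The change was 0.38 (SE 0.25, limma adjusted p = 0.967), and it was 0.13 without non-deprived replicate 2. Of the 7 interneuron markers, 1 had a higher mean in deprived arrays (Vip, change 0.19, SE 0.20) and 6 a lower one, and none passed. Chrne and Htr3a were the 2 tested members (5.41%) whose deprived arrays all lay above the non-deprived ones, against 5.77% of all genes. No tested member had all deprived arrays below, against 4.67% of all genes.

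Htr1d, which encodes a Gi-coupled receptor best known from terminals, read 231.9, 602.3 and 309.1 in non-deprived and 513.0, 449.3 and 428.5 in deprived arrays. Non-deprived values lay on both sides of the deprived ones. The change of 0.38 (SE 0.29, limma adjusted p = 0.967) ran from 0.09 without non-deprived replicate 1 to 0.75 without non-deprived replicate 2. Htr7, the gene of a Gs-coupled receptor, had a change of 0.14 (SE 0.22). Htr4, another Gs-coupled receptor, had -0.10 (SE 0.17) on its brightest probe set, whose _g suffix marks probes shared with a second set. Its other probe sets were dim, at mean signals of 76.7 and 23.5. Both had a higher mean in deprived arrays, the dimmer one without overlap.

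Htr1a and Htr1b, both Gi-coupled, lay close to the signal minimum of 134.7, with mean signals of 183.3 and 166.4. Their changes were 0.02 (SE 0.29) and 0.01 (SE 0.42), and Htr1b alone ranged from 93.9 to 258.6 across arrays. Htr5b, whose human counterpart is a pseudogene, read 211.7 ± 32.1 and 202.4 ± 32.0.

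Htr1f, a dim and untested serotonin receptor gene, had the smallest ratio of deprived to non-deprived mean signal of all members. Its product is Gi-coupled and its mRNA is known from deep cortical layers. It read 64, 59.2 and 52.7 in non-deprived arrays and 17.7, 8.9 and 20.8 in deprived arrays, a ratio of 0.27 without overlap between the groups. With no filter on dim probe sets, limma gave a change of -1.25 (SE 0.30, adjusted p = 0.46 over 12422 probe sets). All 6 values lie under the signal minimum and are not shown to be above background. It was named after its values were seen, among 15 dim members of which 1 (6.67%) lay lower without overlap. Of all 2598 dim genes, 6.39% did.

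The other dim receptor genes had wide ranges. Htr2b read 18.7 to 211.5, with 26, 105.0 and 18.7 in non-deprived and 211.5, 99.3 and 66.4 in deprived arrays. Htr2c, abundant in choroid plexus and present in cortical neurons, read 4.0 to 41.4. All 4 choroid plexus markers on the array, Ttr, Kl, Folr1 and Slc4a5, were also under the signal minimum. Chrnb1 was the 1 dim member (6.67%) whose deprived arrays all lay higher, at 29.8, 42.2 and 71.3 against 18.1, 22.8 and 22.6. Among all dim genes 4.0% did so.

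Of 2 adrenergic and 3 dopamine receptor genes, 1 and 2 were tested, and none passed. Adra2c, a Gi-coupled adrenergic receptor gene, read 665.8, 638.1 and 572.3 in non-deprived and 611.8, 737.7 and 742.2 in deprived arrays. The groups overlapped through deprived replicate 1, and the change was 0.15 (SE 0.14, limma adjusted p = 0.967; interval -0.16 to 0.46). Adra1b, Gq-coupled, averaged 109.9 and read 61.3 to 156.6.

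Drd4, a Gi-coupled dopamine receptor gene known from prefrontal cortex and retina, read 544.2, 642.1 and 697.7 in non-deprived arrays. The deprived arrays read 567.3, 560.5 and 571.5 and lay within that range. The change was -0.14 (SE 0.14, limma adjusted p = 0.967; interval -0.45 to 0.17). Drd2, the main Gi-coupled dopamine receptor gene of striatum, read 206.0 ± 26.5 and 203.5 ± 55.8 and had a change of -0.05 (SE 0.27; interval -0.65 to 0.56). Drd3 averaged 76.3 and was not tested. The striatal markers Penk and Pdyn were above the minimum, at changes of -0.11 (SE 0.16) and 0.10 (SE 0.18), while Rgs9 and Tac1 were dim.

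Both histamine receptor genes were tested and both had a lower mean in deprived arrays. Hrh2, Gs-coupled, read 262.2, 347.0 and 401.3 in non-deprived and 209.8, 224.4 and 325.4 in deprived arrays. Non-deprived replicate 1 lay below deprived replicate 3, and the change of -0.40 (SE 0.24, limma adjusted p = 0.967) had an interval of -0.92 to 0.13. Hrh1, Gq-coupled, read 237.2 ± 17.1 and 228.3 ± 33.1, with a change of -0.06 (SE 0.21).

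**Figure D2:**
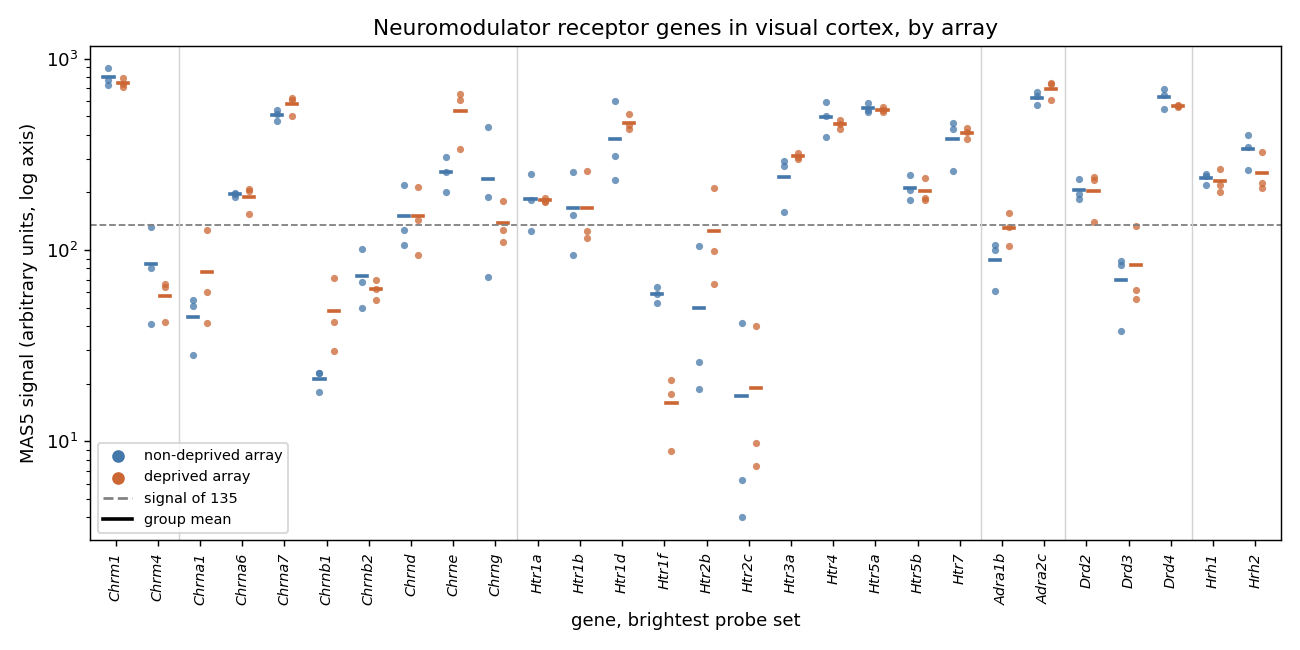
MAS5 signal of the 28 receptor genes on a log axis, one point per array and a bar at each group's mean, with 3 non-deprived and 3 deprived arrays; vertical lines part the receptor families. Points of the 2 groups overlap for all genes but Chrnb1, Chrne, Htr1f and Htr3a, and the dashed line marks the signal under which a gene counts as dim, which 9 genes do not reach on average.

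G protein alpha subunit genes had a median SE of 0.13, and the receptor genes 0.24. Of 12 genes 10 were tested, 7 with a higher and 3 with a lower mean, at a median change of 0.04, and the intervals of 9 stayed inside 1.5-fold. Gnas, which encodes the Gs alpha protein and further products of an imprinted locus, had the brightest probe set of the class. It read 29175, 28198 and 28355 in non-deprived arrays and 28546, 29455 and 28174 in deprived arrays. The groups overlapped, and the change was 0.01 (SE 0.06, limma adjusted p = 0.997, interval -0.12 to 0.13). That probe set carries an _s suffix. A dimmer tested Gnas set without a suffix had a change of -0.14 (SE 0.30), so the narrow interval holds for the brightest set only.

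The Gi and Go genes had SEs of 0.08 to 0.17. Gnao1 encodes the alpha subunit of Go, the most abundant G protein of brain. It read 11282, 11277 and 13376 in non-deprived arrays and 9883, 10976 and 11346 in deprived arrays. Deprived replicate 3 exceeded 2 of the non-deprived arrays, and the change was -0.16 (SE 0.09, limma adjusted p = 0.967; interval -0.36 to 0.04). The 3 other tested Gnao1 probe sets had changes of -0.10, -0.14 and -0.17, so all 4 pointed the same way, with 95% intervals that each hold 0.

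Gnai1 had a change of 0.10 (SE 0.10), Gnai2 0.04 (SE 0.08) and Gnai3 -0.02 (SE 0.15). The Gnai2 value comes from an _f probe set, a kind that can take up related transcripts, and both other Gnai2 probe sets had changes of 0.00 and 0.12. Gnaz, whose Gi-type product resists pertussis toxin, had a change of 0.04 (SE 0.17).

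In the Gq group, Gna11 read 798.5 ± 47.6 and 733 ± 26.6 on its brightest probe set, a change of -0.12 (SE 0.12; interval -0.39 to 0.15). A dimmer Gna11 probe set differed, reading 184.2, 200.5 and 83.2 in non-deprived and 215.1, 247.3 and 346.9 in deprived arrays. Its groups did not overlap, at a change of 0.79 (SE 0.34, limma adjusted p = 0.95). Gnaq read 250.7, 271.5 and 90.2 in non-deprived and 262.0, 281.6 and 245.6 in deprived arrays. Non-deprived replicate 3 alone stood low for Gnaq, and the change of 0.47 (SE 0.36) was 0.01 without that array. Gna15, known from blood cells, and Gna14 averaged 113.5 and 7.18 and were not tested.

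Gna13 and Gna12 encode the remaining family of alpha subunits. Gna13 read 620.9, 706.8 and 660.3 in non-deprived and 749.5, 674.6 and 896.6 in deprived arrays. Deprived replicate 2 lay among the non-deprived values, and the change was 0.21 (SE 0.14, limma adjusted p = 0.967; interval -0.11 to 0.53). A dimmer Gna13 probe set gave 0.26 (SE 0.31). Gna12 had a change of 0.05 (SE 0.23), which was -0.21 without non-deprived replicate 3.

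Beta subunit genes were lower in mean for 3 of 4 tested, at a median of -0.13, and none passed. Gnb1 encodes the most widely used beta subunit and read 5402, 4509 and 5327 in non-deprived and 4962, 4347 and 4686 in deprived arrays. Its groups overlapped through non-deprived replicate 2, with a change of -0.12 (SE 0.10, limma adjusted p = 0.967; interval -0.33 to 0.09). A second Gnb1 probe set, with the suffix _g, read 1475, 1662 and 1913 against 1400, 1384 and 1345. There the groups did not overlap, and the change was -0.28 (SE 0.12, adjusted p = 0.95).

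Gnb2 read 3492, 3126 and 3264 in non-deprived and 2806, 3348 and 2771 in deprived arrays. Deprived replicate 2 lay among the non-deprived values, and the change was -0.15 (SE 0.10, limma adjusted p = 0.967; interval -0.38 to 0.07). Gnb5, which pairs with regulators of G protein signalling of the R7 family, read 566.8 ± 66.3 and 584.8 ± 37.5. Gnb4 was uneven, from 52.7 to 263.8, and its change of -0.14 had an SE of 0.53. Gnb3, a subunit known from cone photoreceptors, averaged 108.2 and was not tested.

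Gamma subunits are short proteins that anchor the complex to the membrane through a lipid at their end. Gng3, a subunit of neurons, read 8928, 7916 and 8697 in non-deprived and 8204, 8792 and 9210 in deprived arrays. The groups overlapped, and the change was 0.04 (SE 0.08, limma adjusted p = 0.981; interval -0.14 to 0.21). Gng2, a common partner of Gnb1, read 223.5, 239.0 and 327.9 in non-deprived and 264.4, 227.8 and 183.4 in deprived arrays. Those groups overlapped as well, with a change of -0.21 (SE 0.24, adjusted p = 0.967).

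Gng10 read 716.2, 758.9 and 931.7 in non-deprived and 891.1, 658.5 and 697.7 in deprived arrays, again with overlap, at a change of -0.10 (SE 0.16, limma adjusted p = 0.97). Gng12 had a change of -0.04 (SE 0.12). Gng4, known from brain, and Gng11 were dim, at means of 57.3 and 91.5. Gnasas1, the antisense RNA, averaged 49.98 and read 33.4 to 70.0.

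**Figure D3:**
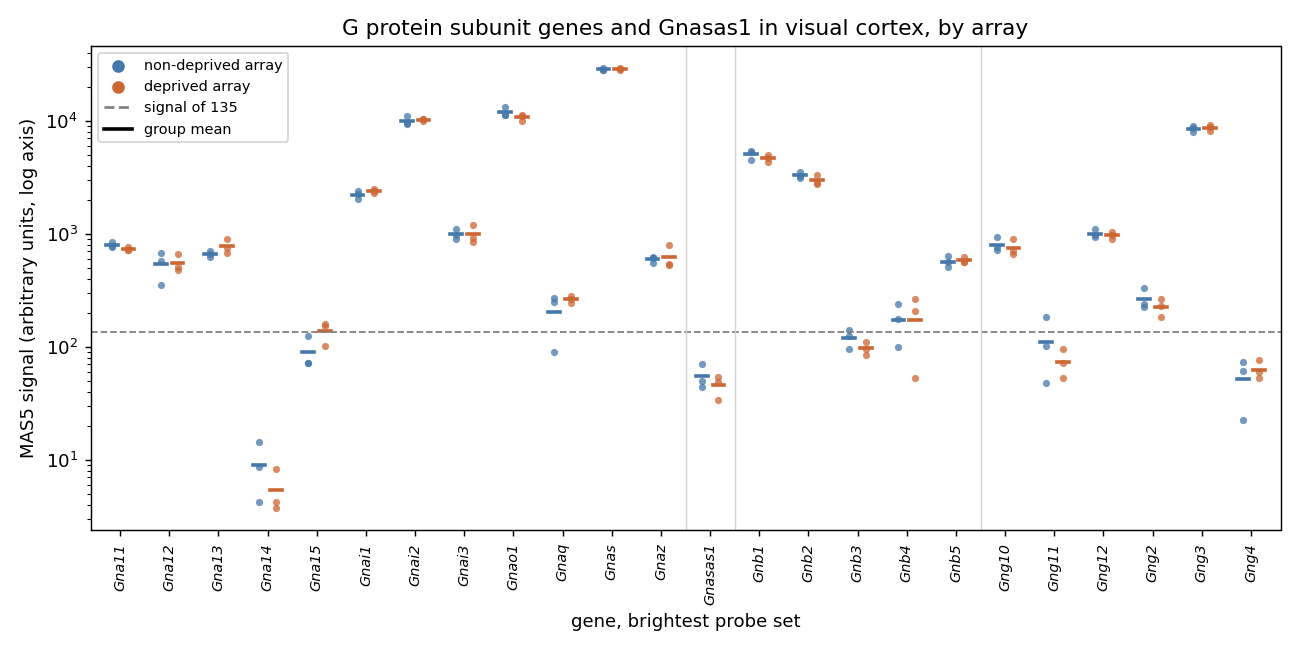
MAS5 signal of the 23 G protein subunit genes and Gnasas1 on a log axis, one point per array and a bar at each group's mean, with 3 non-deprived and 3 deprived arrays. No gene shown separates the groups on its brightest probe set; non-deprived replicate 3 is the low point of Gnaq at 90.2.

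Probe sets of the same gene allowed a second reading for 13 members. They gave 21 other probe sets, of which 12 reached the signal minimum and 0 passed the test. Of the 21, 10 had the opposite sign to the brightest probe set and 7 differed from it by over 0.5 on the log2 scale. Of those 7, all but the second Gna11 set were under the signal minimum. They belonged to Chrne (both), Gnas, Gng11, Chrng, Htr4 and Gna11. Beside the Chrng set described above, the dim Htr4 set had 0.46 (SE 0.28). The dim Gnas set, at 0.82 (SE 0.46), and the dim Gng11 set, at 0.35 (SE 0.49), had mean signals of 87.1 and 23.6. Opposite signs at smaller differences were found on another set of Gng12 (0.30, SE 0.38), Gnai1 (-0.17, SE 0.24), Gnas (-0.14, SE 0.30), Gnb1 (0.05, SE 0.26), Gna12 (-0.27, SE 0.47) and Htr4 (0.33, SE 0.39), each with an SE above the size of its change. The 3 other probe sets with a mean signal of 1000 or more, both of Gnai2 and the _g set of Gnb1, differed from the brightest by -0.03, 0.08 and -0.16.

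**Figure D4:**
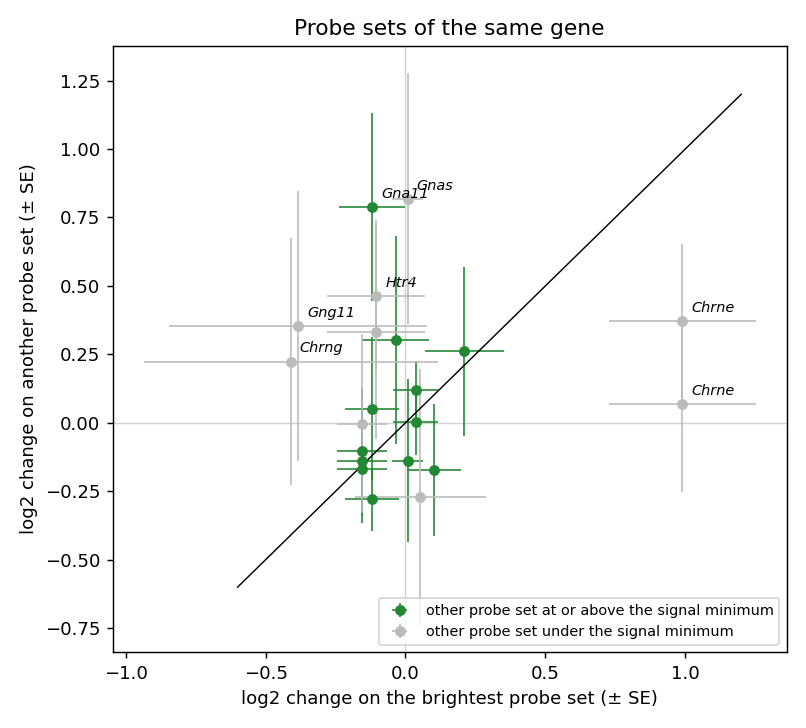
Log2 change on each gene's brightest probe set (horizontal axis) against that on its other probe sets (vertical axis), with SE bars from limma; the diagonal marks equal change. Of the 7 sets named, which differ by over 0.5, only that of Gna11 reached the signal minimum.

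Precision followed signal. For 7 members with a mean signal of 1000 or more, the median SE of the log2 change was 0.09, and all 7 intervals stayed inside 1.5-fold. For 17 members between 300 and 1000 it was 0.15, with 14 intervals inside. For 13 members under 300 it was 0.27, with 1 inside, that of Hrh1. Receptor genes made up 10 of those 13. All genes tested had median SEs of 0.11, 0.17 and 0.29 in the same 3 bands, and 91.4%, 63.4% and 9.69% of their intervals lay inside the bounds. The tested member nearest the minimum was Chrnd at a mean signal of 150.7, and the brightest dim member was Gna15 at 113.5. Each array was the highest for 5 to 10 and the lowest for 4 to 8 of the 37, and non-deprived replicate 3 was the highest for 10 (27% of members, 17.8% of all genes).

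**Figure D5:**
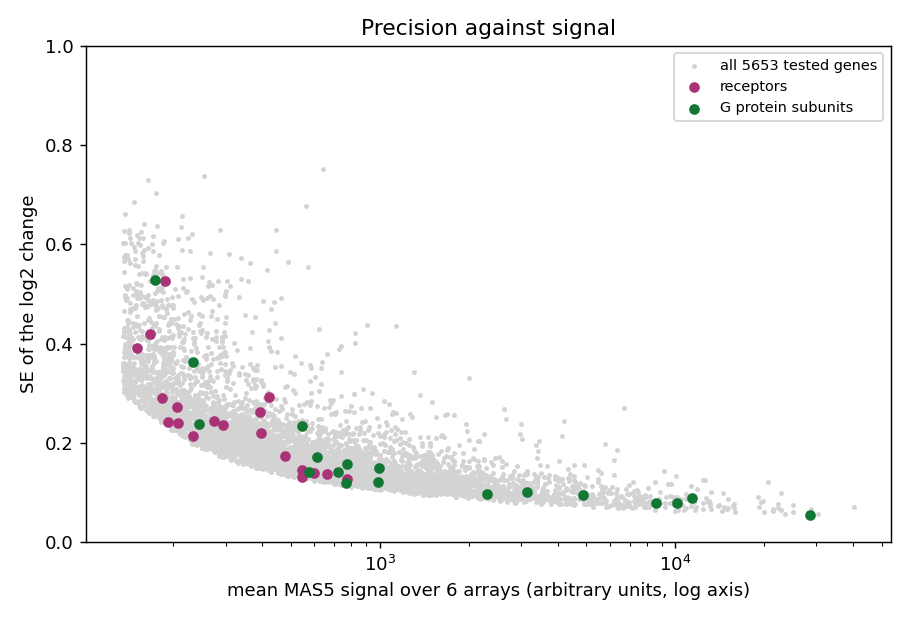
SE of the log2 change against mean MAS5 signal over 6 arrays (log axis) for all tested genes in grey, 19 receptor genes and 18 G protein subunit genes. Receptors lie toward low signal and high SE, and the 7 members at 1000 or more have a median SE of 0.09.

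Genes that act beside these receptors were read from 3 lists. Of 14 listed G protein effectors on the array, 9 were tested, 0 passed and 0 had an unadjusted p under 0.05, at a median change of 0.00. Kcnj9, a potassium channel subunit opened by beta-gamma, read 796.1 ± 120 and 1003 ± 314 (change 0.30, SE 0.21). Arhgef1 had a change of 0.21 (SE 0.23). The 6 tested adenylyl cyclase genes lay between -0.12 (Adcy9, SE 0.14) and 0.22 (Adcy4, SE 0.29), and Plcb1, a phospholipase C beta gene, at -0.01.

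Of 15 genes on the array listed as receptor kinases, arrestins and G protein cofactors, 13 were tested. Among these 13, 9 had a higher and 4 a lower mean at a median of 0.13. The list is broad and also holds Fnta, Fntb, Icmt, Cnih2 and S100a10, so its counts do not describe the named classes alone. None of the 13 passed, and 2 had an unadjusted p under 0.05, against 5.18% of all genes. Pcp2, a regulator of Gi and Go alpha subunits best known from Purkinje cells, averaged 395.5 ± 52.5 without and 662.3 ± 216 with deprivation (change 0.68, SE 0.22, limma adjusted p = 0.901). Fnta, the alpha subunit of the enzymes that attach the lipid to gamma subunits and other proteins, read 796.3 ± 113 and 606.5 ± 43.3 (change -0.38, SE 0.14, adjusted p = 0.95). Both had groups that did not overlap, and so did Ric8a and Pdcl3, which were higher (changes 0.20 and 0.25). Over all genes tested, 5.77% lay higher and 4.67% lower without overlap. The Pcp2 value comes from a probe set with an _r suffix.

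Genes for making, moving and breaking down the modulators were represented by 14 on the array, of which 8 were tested, 0 passed and 0 had an unadjusted p under 0.05, at a median of -0.08. Ache, acetylcholinesterase, read 941.7 ± 276 and 810.7 ± 50.01 (change -0.17, SE 0.21). Maoa, a monoamine oxidase, read 477 ± 33.6 and 436.8 ± 30.3 (change -0.12, SE 0.15). Tph1, Hdc, Slc6a3, Slc18a3, Bche and Gch1 were dim.

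Promoter sequence was searched because the transcripts of several factors that bind known motifs fell in these samples, Fos and Junb for the AP-1 site and Egr1 and Egr2 for the EGR site. RefSeq promoters (GRCm38.p6, 250 bases before to 50 after each start) were found for 40 of 52 members. The letters searched, on both strands, were TGACGTCA for the cyclic AMP response element, TGACTCA for AP-1, and GCGTGGGCG and GCGGGGGCG for EGR; none of the 4 contains another. The cyclic AMP element was in 0 of the 40 members' promoters and in 2.03% of all 27025 genes with a promoter. AP-1 letters were in 3 members (7.5%), Adra1b, Chrna1 and Hrh1, against 5.95% of all genes. GCGTGGGCG was in 2 (5.0%), Gng12 and Htr7, against 0.707%, and GCGGGGGCG in 2 (5.0%), Chrna7 and Hrh1, against 3.31%. Member promoters had a mean GC content of 62.4%, and all promoters 53.8%.

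The 3 stretches below belong to tested receptor genes with a match before the start site, and that of Nr4a1, an activity-induced gene of the reference list, is set beside them. Capitals mark the matched letters, each stretch is written in the direction of its gene, and all come from the minus strand except those of Hrh1 and Nr4a1. They lie at chr19:36057421-36057481 (Htr7), chr7:63212573-63212633 (Chrna7), chr6:114458280-114458338 (Hrh1, ahead of one of its start sites) and chr15:101266760-101266820 (Nr4a1).
Htr7 (EGR letters on the opposite strand): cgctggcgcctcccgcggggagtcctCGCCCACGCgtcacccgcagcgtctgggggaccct
Chrna7 (EGR letters): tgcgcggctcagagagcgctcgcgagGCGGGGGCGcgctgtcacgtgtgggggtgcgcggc
Hrh1 (AP-1 letters): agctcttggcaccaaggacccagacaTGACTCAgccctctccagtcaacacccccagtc
Nr4a1 (EGR letters on the opposite strand): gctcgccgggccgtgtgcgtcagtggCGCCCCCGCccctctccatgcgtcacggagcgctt

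The tested members with these letters had changes of 0.14 (Htr7), 0.17 (Chrna7), -0.06 (Hrh1) and -0.04 (Gng12), with none past the threshold. The dim and untested Adra1b and Chrna1 had 0.50 (SE 0.34) and 0.53 (SE 0.42). Nr4a1 averaged 2188 ± 104.4 without and 876 ± 26.7 with deprivation (limma adjusted p = 0.00048). All 6 reference genes fell, but EGR letters were found for Nr4a1 alone. The cyclic AMP element was found for Dusp1 alone, and AP-1 letters for none of the 6. How many of the 6 had a promoter to search was not counted, so a missing match can also mean a missing promoter. A match of letters describes the sequence and is neither a bound site nor a cause.

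In RefSeq's gene order, 4 pairs of members are direct neighbours among protein-coding genes and members. These are Chrnd with Chrng, Gna11 with Gna15, Gnaq with Gna14, and Gnas with Gnasas1. In every pair but Chrnd and Chrng only one partner reached the signal minimum, so no change could be compared across neighbours, and Chrnd and Chrng had changes of -0.01 (SE 0.39) and -0.41 (SE 0.53).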

How the data were processed

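The authors deposited 1 table of signal intensity for 12488 probe sets on 6 arrays. Per the submitters' processing notes the values are from MAS5, and the version and scaling target are not given in the sources used here. Every array had a 2% trimmed mean of 500.3 as deposited, which hides any change in total mRNA. Detection calls and scanner files were not used here, so dim signals could not be told from background, and the number of arrays limits the precision.

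The 66 control probe sets were set aside. Those whose mean over all arrays was among the brightest 60% (at least 134.7; 7453 probe sets) were tested on log2(signal + 16), a pseudocount that understates changes of low signals. The two-sided test came from limma 3.58.1 (R 4.3.3), using lmFit and then eBayes with a trend on intensity, and modelled group alone. Dim genes' changes come from the same fit without the filter. The code was tested on simulated data.

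Names came from the platform annotation. Of the probe sets without controls, 10833 had 1 symbol, 396 several and 1193 none. All 52 members matched RefSeq's mouse table by Entrez ID, and no symbol changed.

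Members and lists were chosen with earlier results of these data known. Named were the 2 tested genes with the smallest p and the brightest gene of each class, the 2 with the smallest p of each pathway list, and second probe sets that differ by over 0.5 or in sign. The first 2 kinds are given by array or by group mean with the change, and the others, like the remaining members, by range, mean or change. The promoter search was added after values were seen, and protein sequences were not used here. Alternatives were other scaling, pseudocounts, filters, probe set choices and models, and each array left out.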

Additional observations from a re-analysis of the deposited data

How the results depend on the processing

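Under all 15 alternatives 0 members passed the threshold, and 0 genes of the 3 lists of effectors, cofactors and modulator enzymes passed; the smallest adjusted p of a member ranged up from 0.116 (Chrne, without deprived replicate 2). Within groups, the members' per-array median log2 signal had an SD of 0.05, which is a spread of array levels and not of changes. The members' median log2 change ran from -0.04 to 0.02, and the number of members with an interval inside 1.5-fold was 18 to 27, against 22. Leaving out 1 array gave -0.04 to 0.01 for the median and 18 to 21 for the intervals. Of 19 genes given in full, 13 kept their sign under every alternative that tested them. The other 6 lay near 0 and turned, always uncalled. Gnas stood at -0.14 without suffixed probe sets and at 0.23 with the mean of its probe sets. Over the fits that left out 1 array, Drd2 ran from -0.17 to 0.19, Gnas from -0.0108 to 0.0224, Gng3 from -0.0142 to 0.0817, Gng10 from -0.23 to 0.0103, Hrh1 from -0.16 to 0.0221 and Htr5a from -0.0584 to 0.0211. The cause was not tested. Of the 6 activity-induced reference genes, 5 passed when probe sets were averaged per gene (not Egr1), 5 without suffixed sets (Junb has no other kind), and 6 under the other 13 alternatives. Of all 37 tested members, 21 changed sign in at least 1 fit without an array. The labels do not say whether equal replicate numbers mark cortex of the same animals. Deviations from the group mean correlated at 0.003, 0.049 and -0.02 for same-numbered arrays and at -0.098 to 0.102 for others. Not every array correlated best with its own number. Array noise could hide a pairing, so these values cannot decide it. With the replicate block, 0 members and 10 probe sets of 7453 passed, against 0 and 13 without it. Dim signal limits 13 tested members under 300 and the 15 dim ones.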
